A study of Mus musculus with 4 samples.

Results

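The control arm of an RNA sequencing study of the mouse plasmacytoma line MPC11 was described here on its own, as a map of the genes that an antibody-producing tumour cell transcribes and those it leaves silent. It holds 2 of the 4 samples of the series. Both are cultures transduced with a pLKO.1 lentivirus that carries a hairpin against GFP (shGFP), a sequence that mouse cells lack. The other 2 samples, with a hairpin against Ell2 (Ell2-KD), were not used, and no comparison with them was made. All cultures came from 1 line, bought from ATCC and grown in RPMI with fetal bovine serum. Virus was removed after 18 hours, puromycin selection lasted 72 hours and expansion another 72 hours. The labels call the 2 cultures biological replicates and do not say whether they were transduced separately, so their difference may be partly technical. The controls thus share the virus, the selection and the hairpin machinery with the depleted cells, and untransduced cells are not part of the study.

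Plasma cells are the end stage of the B lymphocyte lineage and turn most of their protein synthesis to secreted antibody. The factors Irf4, Prdm1 and Xbp1 drive this state: Prdm1 represses genes of the mature B cell, and Xbp1, spliced by the stress sensor Ern1, enlarges the endoplasmic reticulum (ER) and its folding machinery. MPC11 is a tumour line of this stage that has been used for decades to study how immunoglobulin messages are processed into their membrane and secreted forms.

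Reads were counted per gene for 22722 genes, 8323915 counts in replicate 1 and 5088789 in replicate 2. Levels are CPM, counts scaled to a library total of 1000000, always given for replicate 1 first and replicate 2 second. A gene was called expressed at 10 CPM or more in both libraries, which is 83.2 counts in replicate 1 and 50.9 in replicate 2, and silent under 1 CPM in both, which is 8.32 and 5.09 counts. By these rules 7922 genes were expressed (34.9% of all), 10454 were silent (46.0%) and 4325 lay in between. The shares of 34.9% and 46.0% are the background for each count of list members below. Another 21 were expressed in 1 library and silent in the other. Of the silent genes, 4081 had no count in either library. A count of 0 allows a level of up to 0.360 CPM in replicate 1 and 0.590 CPM in replicate 2 (3 counts, counting error only). CPM rises with the length of a transcript, so ranks of different genes by CPM below are ranks by share of reads. A comparison of level needs values per kilobase of exon (CPM per kb), which are given for some genes. Where different genes stand side by side in CPM alone, the values are not corrected for length.

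The 2 libraries ranked the expressed genes alike, with a Spearman correlation of 0.923 and a median difference of 0.31 on the log2 scale in either direction. Of the 7922 expressed genes, 248 (3.13%) were over 2-fold higher in replicate 2 and 211 (2.66%) over 2-fold higher in replicate 1. The plot of both replicates shows a band around equal levels for most genes, with most small nucleolar RNAs above it.

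**Figure D1:**
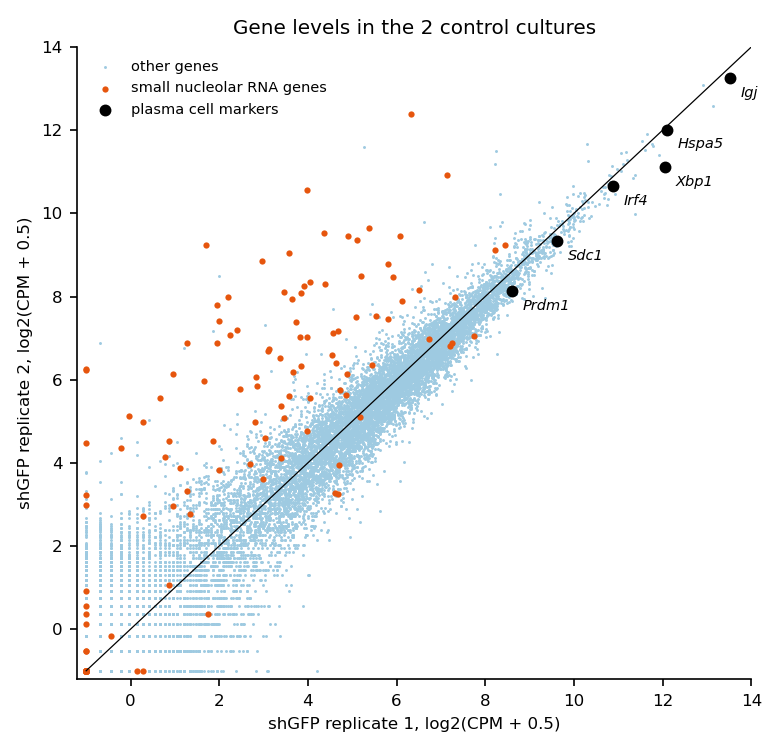
Each point is 1 gene, with its level in shGFP replicate 1 on the horizontal axis and in shGFP replicate 2 on the vertical axis, both as log2(CPM + 0.5), and the line marks equal levels. The 6 plasma cell markers (black) lie near the line at the upper end, while most expressed small nucleolar RNA genes (orange) lie above it: 45 of 50 were higher in replicate 2.

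Short RNAs set the libraries apart. Small nucleolar RNAs, which guide chemical modification of ribosomal RNA, summed to 3009 CPM in replicate 1 and 23729 CPM in replicate 2, a 7.89-fold difference. By replicate 2 alone 84 of 141 were expressed, beside 50 in both libraries. Snord15b stood at 79.3 and 5342 CPM and Snord89 at 15.3 and 1509 CPM. The spliceosomal RNA gene Rnu1b2 had 38.1 and 3087 CPM, and Rmrp, the RNA of a ribonuclease that processes ribosomal RNA, had 303 and 2892 CPM. All 4 were higher in replicate 2, so no level of a short RNA is described here as a property of the line. Among genes with a mean of at least 10 CPM, the median ratio of replicate 2 to replicate 1 was highest for short ones: 10.2-fold for 82 genes of under 200 bases and 2.08-fold for 46 genes of 200 to 500 bases. It was 0.922-fold for 3147 genes of 2000 to 4000 bases and 0.954-fold for 3375 longer genes. A gene could reach a mean of 10 CPM through replicate 2 alone, so this filter can itself raise the medians of short genes. How much it does so was not tested. The genes under 200 bases held 0.289% of the counts in replicate 1 and 2.61% in replicate 2. What gave the difference was not tested.

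**Figure D2:**
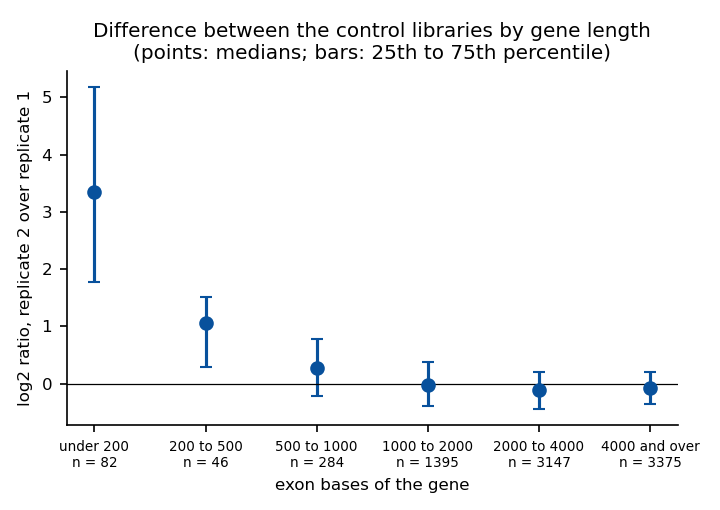
Median log2 ratio of replicate 2 to replicate 1 (vertical axis) for genes with a mean of at least 10 CPM, in 6 classes of exon length in bases (horizontal axis, with the number of genes), with bars from the 25th to the 75th percentile. The median was 3.35 under 200 bases, 1.06 at 200 to 500 bases, and between -0.12 and 0.28 in the 4 longer classes. A gene could reach the mean of 10 CPM through replicate 2 alone, which can itself raise the medians of short genes.

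Longer genes also differed between the replicates, and 6 are given as examples. Dok7, an adaptor of muscle receptor signalling, had 0.120 and 118 CPM. The host gene Gas5, whose introns hold small nucleolar RNAs, had 1259 and 3278 CPM. The ribosomal protein gene Rpl17 had 299 and 2323 CPM. All 3 were higher in replicate 2. In the other direction, the co-chaperone gene Stip1 had 2645 and 1013 CPM, the ribosomal protein gene Rps15 205 and 63.3 CPM and the methionine synthase reductase gene Mtrr 307 and 96.9 CPM. Of the 21 genes expressed in one library and silent in the other, 19 were higher in replicate 2, and 7 of the 21 are classed as small nucleolar RNAs.

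Reads were spread over many of the listed genes rather than a handful. Of 21 immunoglobulin names looked for 15 are not listed, and neither is any of 15 names of the mitochondrial genome. All shares here are of the counts over listed genes. The 10 most abundant genes of each library held 6.27% and 5.71% of its counts (5.99 ± 0.393, SD, n = 2), the first 100 held 18.6% and 18.8%, and the first 1000 held 52.0% and 52.5%. It took 910 genes to reach 50 percent of the counts in replicate 1 and 885 in replicate 2, and 4821 and 4860 genes to reach 90 percent. In both libraries 2193 genes had at least 100 CPM and 62 had at least 1000 CPM. Messenger genes took 97.6% and 94.8% of the counts.

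**Figure D3:**
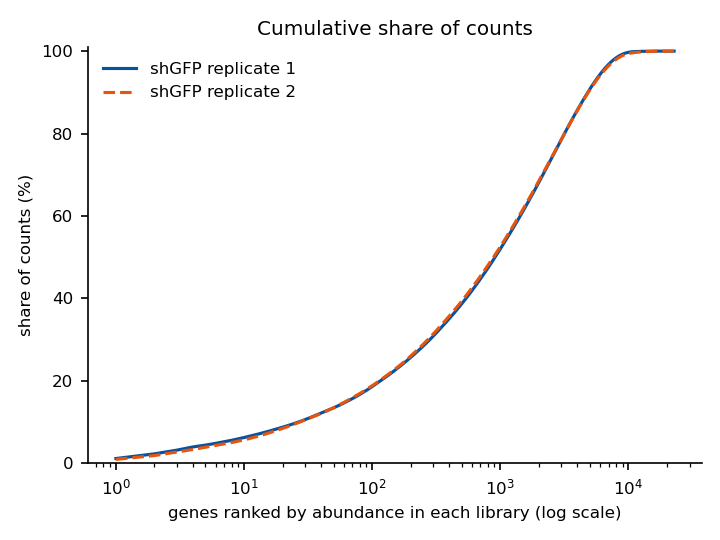
Cumulative share of counts in percent (vertical axis) over genes ranked by abundance within each library (horizontal axis, log scale), for shGFP replicate 1 (solid) and replicate 2 (dashed). The curves lie almost on one another, passing 18.6% and 18.8% at 100 genes and 52.0% and 52.5% at 1000 genes.

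The first places by share of reads went to a mixture of secretory and growth genes. Igj, the J chain that joins antibody monomers into polymers, was first among listed genes on the mean of both libraries. It had 11806 and 9743 CPM. The nuclear long noncoding RNA Malat1 was next, with 11339 and 9237 CPM. Lars2, the mitochondrial leucyl-tRNA synthetase, had 7717 and 8686 CPM, and how its reads were mapped is not known. Then came 2 ER chaperones: Hsp90b1, also called Grp94, with 9059 and 6172 CPM, and Hspa5, also called BiP, with 4406 and 4131 CPM. The exons of Hsp90b1 overlap those of another gene, and how reads there were assigned is not known. The proliferation antigen Mki67 had 3204 and 3851 CPM, the D-type cyclin Ccnd2 3453 and 3259.7 CPM and Edem1, a lectin that sends misfolded glycoproteins to degradation, 3536 and 3139.7 CPM. The list of the first 20 went on with the elongation factor Eef1a1, Xbp1, the ribosomal scaffold Gnb2l1, the cytosolic chaperone Hsp90ab1, Snord15b, the ER degradation adaptor Sel1l, the ribosomal genes Rpl4 and Rps3, Serinc3, Gas5, Ubr3 and the initiation factor gene Eif4g2. Snord15b held its place through replicate 2 alone.

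Per kilobase of exon the order favoured short messages but kept Igj first, at 7735 CPM per kb (genes of at least 300 exon bases, mean of both libraries). The histone gene Hist2h2bb followed with 4894 CPM per kb, Hsp90b1 with 2696 and Gas5 with 2666. Further genes of the first 10 were Gnb2l1 with 2198 CPM per kb, Lars2 with 2106, Eef1a1 with 1833, Rpl23a with 1626 and Rpl4 with 1596. Every stretch of 31 bases in Hist2h2bb also occurs in another gene, so its reads could not be assigned to it with certainty.

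The markers of the label were all well above the threshold. Xbp1, the transcription factor of the secretory programme, had 4260.2 and 2202 CPM, the largest ratio of the 6 between replicates. Irf4 had 1885 and 1607 CPM and Prdm1, also called Blimp1, had 387 and 279 CPM. The surface proteoglycan Sdc1, also called CD138 and used to sort plasma cells, had 789.9 and 642 CPM. Per kilobase Igj stood at 7735 CPM, Xbp1 at 1352, Hspa5 at 1137, Irf4 at 367, Sdc1 at 227 and Prdm1 at 62.0. In this order per kilobase only the neighbours Xbp1 and Hspa5 overlapped between the 2 libraries, so those 2 do not differ beyond their spread. All 6 markers of the label were thus present in both cultures. In bulk RNA, fewer cells of a type and less RNA per cell cannot be told apart.

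Regulators of the plasma cell state were expressed as a block. Of 19 listed, 16 were expressed and 3 lay in between, with a median of 117.5 CPM beside 1.09 CPM over all genes. By replicate 1 alone 2 were silent. Besides the markers, Pou2af1, the coactivator of octamer factors, had 1134 and 896 CPM. The elongation factor Ell2, which promotes the secreted form of immunoglobulin messages and is the gene the study depletes in its other arm, had 945 and 986 CPM in these controls. Its exons overlap an antisense gene, and without a known strand setting the 2 could not be told apart. Hnrpll, a splicing regulator of activated lymphocytes, had 113 and 155 CPM, and Bhlha15, also called Mist1 and known from secretory cells, had 82.8 and 44.8 CPM. The octamer factor Pou2f2 had 25.3 and 47.8 CPM and the zinc finger factor Ikzf3 31.1 and 35.4 CPM. The 3 in between were Runx1, at 3.36 and 8.25 CPM, Bhlhe40, at 0 and 5.50 CPM, and Runx2, at 0 and 1.38 CPM.

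Plasma cell surface and homing genes were mixed: 15 of 25 were expressed, 5 lay in between and 5 were silent, with a median of 40.1 CPM. The hyaluronan receptor Cd44 had 662 and 596 CPM, the integrin chain Itgb1 483 and 388 CPM and the marrow homing receptor Cxcr4 300.1 and 449.8 CPM. Of the receptors for the survival factors BAFF and APRIL, Tnfrsf13b (TACI) had 161 and 111 CPM, Tnfrsf13c (the BAFF receptor) 27.9 and 22.2 CPM and Tnfrsf17 (BCMA) 19.1 and 24.8 CPM. Per kilobase the first and last of these stood at 53.1 and 26.9 CPM. The costimulatory receptor Cd28 lay in between at 6.73 and 6.29 CPM, and Cd27, a marker of human plasma cells, was silent at 0.240 and 0 CPM. Ccr9, a gut homing receptor, was silent at 0.120 and 0.197 CPM, and Ly6a had no count.

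Of 21 immunoglobulin and related names looked for, 6 were found, and the heavy and light chain genes themselves are not analysed here. Igj and the ER cochaperone 2010001M09Rik, now called Mzb1, were expressed, the second at 1271 and 1147 CPM. Its level is less certain, since most of its 31-base stretches also occur in another gene. Genes of the surrogate light chain, used only by B cell precursors, were silent: Vpreb1 had 0 and 0.197 CPM, Vpreb2 0 and 0.197 CPM and Igll1 0.120 and 0.393 CPM.

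The secretory pathway took a large share of the reads. Its 5 lists together (chaperones, translocon, vesicle transport, ER-associated degradation and stress regulators) held 166 genes. Of these 148 were expressed (89.2%, beside 34.9% of all genes), 9 lay in between and 9 were silent (5.42%, beside 46.0%). The 166 genes made up 6.81% and 6.28% of all counts. Their median was 190.8 CPM.

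Chaperones and folding enzymes of the ER led: 34 of 39 were expressed and 3 silent, with a median of 318 CPM and 3.29% and 2.81% of all counts. After Hsp90b1 and Hspa5 came the disulfide isomerases Txndc5, with 2141 and 2079.9 CPM, Pdia4, with 1948 and 1406 CPM, and Pdia3, with 1741 and 1309 CPM. The calnexin cycle, which folds glycoproteins, was represented by Canx with 1199.9 and 996 CPM, Calr with 1059 and 1090.4 CPM and its glucose sensor Uggt1 with 573 and 522 CPM. The nucleotide exchange factor Hyou1 had 933 and 757 CPM and the secreted stress protein Manf 1014 and 1414 CPM. The silent members were Clgn, the calnexin of the testis, at 0 and 0.590 CPM, Pdia2, the disulfide isomerase of the pancreas, at 0 and 0.197 CPM, and Fkbp9 at 0.240 and 0.590 CPM. Calr3, the testis calreticulin, lay in between at 2.76 and 4.91 CPM. Of the oxidases that recharge the isomerases, Ero1l had 159 and 155 CPM and Ero1lb 42.5 and 50.7 CPM.

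Some promoters of these chaperones hold a DNA element that was searched for because of its known link to ER chaperones. Its share among them is thus a description and no independent support for the list. The ER stress element, bound by Atf6 and Xbp1 with the general factor NF-Y, was searched as CCAAT, any 9 bases and CCACG, on both strands, in RefSeq promoters of build GRCm38.p6 running from 250 bases before to 50 bases after the start. It was found in 39 of 32851 such windows of 300 bases (0.119%), and in 8 of the 34 chaperone genes with a promoter in the table (23.5%). Here and below a gene counts once if any of its windows holds a match, so shares of genes and of windows have unlike bases. All 8 were expressed. The 9 matches, 2 of them in Hsp90b1, are shown because they include both leading chaperones, Hsp90b1 and Hspa5. Txndc5, Pdia4 and Pdia3, next in abundance, are not among the genes with a match. Capitals mark the CCAAT and CCACG ends, and 5 bases stand on either side. Each is written 5′ to 3′ on the strand given.
Hspa5, chr2:34772020-34772048, plus strand: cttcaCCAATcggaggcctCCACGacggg
Hsp90b1, chr10:86705528-86705556, plus strand: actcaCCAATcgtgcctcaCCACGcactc
Hsp90b1, chr10:86705633-86705661, minus strand: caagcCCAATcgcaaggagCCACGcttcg
Calr, chr8:84847070-84847098, plus strand: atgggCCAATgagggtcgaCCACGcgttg
Canx, chr11:50325795-50325823, minus strand: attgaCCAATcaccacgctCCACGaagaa
Pdia6, chr12:17266486-17266514, plus strand: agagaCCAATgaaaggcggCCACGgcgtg
Creld2, chr15:88819515-88819543, minus strand: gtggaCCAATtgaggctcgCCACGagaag
Dnajc3, chr14:118937822-118937850, plus strand: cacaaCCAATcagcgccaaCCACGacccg
Ero1lb, chr13:12565677-12565705, minus strand: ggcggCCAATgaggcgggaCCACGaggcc

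The match of Hspa5 begins 65 bases before the start of the gene and that of Dnajc3 105 bases before it, both in the direction of transcription. The levels of the 8 genes span a wide range, from 42.5 and 50.7 CPM for Ero1lb and 122 and 146 CPM for Dnajc3 to the 2 leading chaperones. Pdia6 had 1155 and 960.0 CPM and Creld2 979.6 and 592 CPM. The same element lay in 2 of 19 genes of ER-associated degradation, Syvn1 and Derl3, and in none of 25 translocon, 41 vesicle transport and 61 ribosomal protein genes with a promoter. Over all genes it was found in 14 of 6414 expressed genes (0.218%) and 7 of 7343 silent genes (0.0953%). A match is a description of these letters in this window and shows no binding.

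Other elements were spread differently. A second form of the stress element, ATTGG, 1 base and CCACG, lay in 12 of all windows (0.0365%). It was found in 8 expressed genes, among them Dnajb11, Herpud1 and Krtcap2. The Xbp1 element TGACGTGG lay in 0.676% of all windows and in 1.18% of expressed genes with a promoter. It lay in 8 of 41 vesicle transport genes (19.5%), and these 8 include Sec23a, Sec24d, Copb1 and Copb2 but also the silent Sec16b. The octamer ATGCAAAT, known from immunoglobulin promoters, was in 1.59% of expressed and 1.89% of silent genes, beside 1.74% of all windows.

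Entry into the ER was expressed almost without gaps. Of 34 genes for signal recognition, the translocon, signal peptidase and oligosaccharyltransferase, 33 were expressed, with a median of 253 CPM. The catalytic subunit of oligosaccharyltransferase that works at the translocon, Stt3a, had 1220.5 and 1284 CPM and its relative Stt3b 324 and 376 CPM, or 213 and 82.97 CPM per kb. Of the 2 alternative partners of Stt3b, Magt1 had 489.8 and 565 CPM while Tusc3 was the silent member, at 0 and 0.393 CPM. The channel subunit Sec61a1 had 718 and 499 CPM and its relative Sec61a2 18.3 and 12.2 CPM, and 33.9% of the 31-base stretches of the second occur in another gene. The associated subunit Ssr3 had 1091 and 1023 CPM and Rpn2 1039 and 910.0 CPM.

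Transport from the ER to the Golgi showed the same pattern, with 43 of 46 genes expressed and a median of 190.7 CPM. The coat subunit Copb1 had 585 and 651 CPM, and the cargo receptor Lman1, which carries glycoproteins, had 475 and 629 CPM. Tmed7 had 448 and 668 CPM. Relatives of expressed genes missed the threshold: Sec16a had 138 and 159.8 CPM and Sec16b 0.120 and 0.197 CPM, Copz1 141 and 81.2 CPM and Copz2 1.32 and 0.590 CPM, Sec31a 193 and 211 CPM and Sec31b 2.28 and 0.983 CPM. Copz2 and Sec31b lay in between by the rule, each over 1 CPM in replicate 1 and under it in replicate 2.

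Removal of misfolded proteins was expressed in 24 of 25 genes, with a median of 130.3 CPM, and held 0.957% and 0.951% of the counts. A pair of genes made up much of this. Edem1 had 3536 and 3139.7 CPM and Sel1l, which links substrates to the ubiquitin ligase Syvn1, 2327 and 2823 CPM. Syvn1 itself had 135 and 196 CPM. Edem3 had 569.7 and 474 CPM and Edem2 236 and 189 CPM. Per kilobase Edem1 stood at 574 CPM, Sel1l at 408 and Syvn1 at 45.1. Only the conjugating enzyme Ube2j2, at 3.604 and 3.54 CPM, missed the threshold.

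The stress regulators were expressed in part. Of 22 sensors and factors of the unfolded protein response, 14 were expressed, 4 lay in between and 4 were silent, with a median of 50.02 CPM. All 3 sensors were expressed: Atf6 at 436 and 466 CPM, Eif2ak3 (PERK) at 204 and 164 CPM and Ern1 (IRE1) at 151 and 115 CPM. Ern2, the sensor of mucous epithelia, had no count. Downstream of PERK, the translated activator Atf4 had 324 and 246 CPM and its target Asns, asparagine synthetase, 515 and 691 CPM. The death-promoting factor Ddit3 (CHOP) lay in between, at 4.32 and 3.54 CPM, as did the kinase-like inhibitor Trib3, at 2.40 and 3.73 CPM. Of the phosphatase subunits that end the PERK signal, the constitutive Ppp1r15b had 946 and 699 CPM and the stress-induced Ppp1r15a 12.1 and 20.8 CPM. Both genes of prolonged stress named here, Ddit3 and Trib3, were thus under 5 CPM in both libraries.

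The programme of the mature B cell was expressed in part. Of 31 surface and receptor signalling genes, 10 were expressed (32.3%), 6 lay in between and 15 were silent (48.4%), shares near those over all genes. Cd79b, a signalling chain of the B cell receptor, had 1021 and 1025 CPM, whereas its partner Cd79a had 0 counts in both libraries. Of the 31-base stretches of Cd79a 12.2% occur in another gene. How its reads were mapped and annotated is not known, so Cd79a is listed at 0 and not called absent. Ms4a1, the antigen CD20, had 381 and 345 CPM. Blnk, the linker of receptor signalling, had 358 and 289.7 CPM, the lipase Plcg2 158 and 203 CPM and the kinase Btk 92.5 and 63.7 CPM, while the kinase Blk had no count. Of the receptors and adhesion molecules of circulating B cells, Cd72 and Fcrl1 had no count in either library, Cd22 had 0.240 and 0.590 CPM, the complement receptor Cr2 0.120 and 0.983 CPM and the follicle receptor Cxcr5 0.120 and 0.590 CPM. Ptprc, the leukocyte antigen CD45, lay in between at 2.16 and 2.36 CPM.

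B cell transcription factors were also divided, with a smaller silent share. Of 20 listed, 8 were expressed, 7 lay in between and 5 were silent, with a median of 10.2 CPM. The expressed share was near the 34.9% over all genes, and at a threshold of 20 CPM only 4 were expressed. Tcf4, an E protein, had 631 and 701 CPM, Mef2c 472 and 329 CPM, Ets1 131 and 185 CPM and Foxo1 77.2 and 85.5 CPM. Pax5, the factor that maintains B cell identity and is repressed by Prdm1, had 3.604 and 0.197 CPM, with 30 counts in replicate 1 and 1 in replicate 2. Its exact Poisson 95% intervals, 2.43 to 5.15 CPM and 0.00498 to 1.09 CPM, do not meet. Ebf1, its partner in B cell commitment, was expressed at 17.4 and 32.0 CPM. Spib was silent at 0.120 and 0.393 CPM, and so was Ciita, the master regulator of MHC class II, at 0.120 and 0.393 CPM.

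Of 11 genes of MHC class II presentation 3 were expressed (27.3%) and 4 silent (36.4%), near the shares over all genes (34.9% and 46.0%). The chains H2-Aa, H2-Ab1 and H2-Eb1 had 0.120 and 5.31, 3.48 and 5.70 and 0 and 3.34 CPM, the first and last with most of their counts in replicate 2. The chaperone H2-DMb1 was silent at 0 and 0.197 CPM. The invariant chain Cd74, however, had 279 and 312 CPM, and the protease Ctss, which trims it, had 546 and 668 CPM. Of 13 class I genes 12 were expressed: B2m at 457 and 764 CPM, H2-D1 at 323 and 284 CPM and H2-K1 at 185 and 282 CPM, with the peptide transporter Tap1 at 39.9 and 32.4 CPM. The other, H2-Q7, had no count, and 48.1% of its 31-base stretches occur in another gene.

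**Figure D4:**
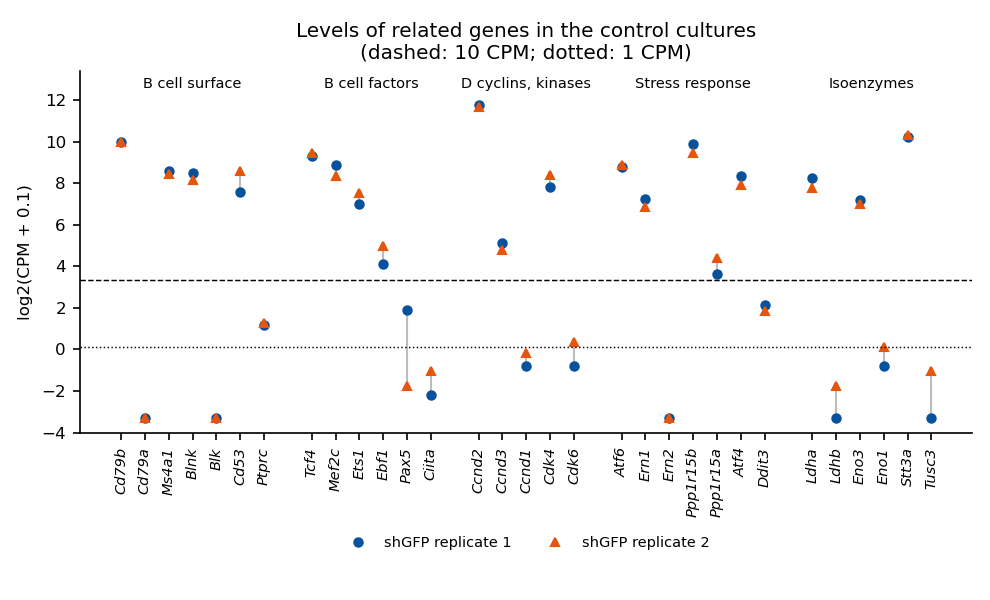
Levels as log2(CPM + 0.1) on the vertical axis for genes on the horizontal axis in 5 groups, with circles for shGFP replicate 1 and triangles for replicate 2; the dashed line marks 10 CPM and the dotted line 1 CPM. Within each group related genes fall on both sides: Cd79b at 1021 and 1025 CPM against Cd79a, listed at 0, and Ccnd2 at 3453 and 3259.7 CPM against Ccnd1 at 0.481 and 0.786 CPM. The low counts of Cd79a and Eno1 are not read as absence.

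Protein synthesis and turnover were expressed broadly. Of 82 cytosolic ribosomal protein genes 72 were expressed, 5 lay in between and 5 were silent, and they held 1.95% of counts in replicate 1 and 2.93% in replicate 2. Rpl4 had 2122 and 2786 CPM and Rps3 2361 and 2483 CPM, close in both libraries. Rpl13a, at 322 and 1407 CPM, and Rpl35a, at 97.6 and 884 CPM, were much higher in replicate 2. Rps23 and Rpl26, single subunits every ribosome needs, had 0 counts. Their 31-base stretches occur elsewhere to 52.7% and 50.2%, while the median of the 72 expressed members was 45.4%. The part of shared sequence in the counts of 0 was not tested, and they are not read as absence. By replicate 1 alone 8 members were silent. Of the 5 silent members the other 3 were Rpl10l, Rpl39l and Rpl3l, copies known from testis or muscle.

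Translation factors were expressed in 35 of 36 cases, with a median of 316 CPM. Eef1a1 had 3882 and 2694 CPM, Eef2, which moves the ribosome along, 1766 and 1952 CPM and Eif4g1, the scaffold of the cap complex, 1802 and 1719 CPM. The exception was Eef1a2, the form of muscle and neurons, at 0.240 and 1.18 CPM. Of 35 aminoacyl-tRNA synthetase genes 33 were expressed. Lars2 led them by far, at 2106 CPM per kb, beside 231 for Eprs and 270.1 for Gars. How reads were assigned to Lars2 is not known, so this lead is not read as the level of its message. Mitochondrial ribosomal protein genes were expressed in 70 of 76 cases and silent in none. Of 34 proteasome subunits 32 were expressed, with a median of 194 CPM. Psma1 had 467 and 506 CPM. The catalytic subunits of the immunoproteasome were among them, Psmb8 at 264 and 321 CPM and Psmb9 at 46.1 and 55.8 CPM, and the constitutive Psmb5 had 16.6 and 22.6 CPM. The silent subunits were Psma8 of the testis, at 0.120 and 0.393 CPM, and Psmb11 of the thymus, at 0.841 and 0 CPM.

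Enzymes of energy metabolism differed between isoenzymes. Of 32 glycolytic enzymes and transporters 18 were expressed and 12 silent. Pkm2, the pyruvate kinase of dividing cells, had 967 and 1057 CPM, Gapdh 527 and 460.4 CPM and Tpi1 323 and 462 CPM. Ldha, which makes lactate, had 307 and 217 CPM and Ldhb 0 and 0.197 CPM. Among enolases Eno3, known as the muscle form, had 147 and 128 CPM, and the ubiquitous Eno1 was listed at 0.481 and 0.983 CPM. None of the 31-base stretches of Eno3 but 53.5% of those of Eno1 occur in another gene, and the part this plays in the low count of Eno1 was not tested. How reads of Eno1 were mapped is not known, so its count is not read as absence or as a switch of isoenzyme. Pklr, the pyruvate kinase of the liver, was silent at 0.120 and 0.197 CPM. Of glucose transporters Slc2a1 had 48.2 and 58.0 CPM, Slc2a2 0 and 0.197 CPM and Slc2a4 0.481 and 0 CPM. The lactate carrier Slc16a1 had 407 and 378 CPM and Slc16a3 0.120 and 0 CPM.

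The respiratory chain was expressed in 45 of 56 nuclear genes, with a median of 119 CPM. Atp5b, of the ATP synthase head, had 1304 and 944 CPM and Cox4i1, of cytochrome oxidase, 486 and 499 CPM. The 6 silent members of this list were forms of heart, muscle or testis: Cox6a2 at 0 and 0.197 CPM, Cox8c at 0 and 0.786 CPM, Cyct at 0.120 and 0 CPM, and Cox7a1, Cox8b and Cox6b2 with no count. Outside the list, Ndufs5, a subunit of complex I in all tissues, also had no count, which is not read as absence. Genes of the mitochondrial genome are not analysed here. Of 29 genes of cholesterol synthesis and uptake 22 were expressed and 2 silent. Srebf2, the transcription factor of the pathway, had 181 and 167 CPM and the demethylase Cyp51 154 and 141 CPM.

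Every listed gene of the replication machinery was expressed, 31 of 31, with a median of 132 CPM. Top2a, the topoisomerase of mitosis, had 898 and 1187 CPM, the helicase subunit Mcm6 469 and 631 CPM and the ribonucleotide reductase subunit Rrm1 549 and 543 CPM. Among cyclins, kinases and inhibitors 20 of 27 were expressed. The 3 D cyclins were far apart: Ccnd2 at 3453 and 3259.7 CPM, Ccnd3 at 34.6 and 27.5 CPM and Ccnd1, silent, at 0.481 and 0.786 CPM, or 500.1, 12.7 and 0.169 CPM per kb. Their kinases differed too, with Cdk4 at 230.3 and 342 CPM and Cdk6 at 0.481 and 1.18 CPM. Ccna2 of S phase had 796 and 609 CPM and Ccnb2 of mitosis 176 and 185 CPM. Of the inhibitors Cdkn2a had 117 and 96.9 CPM, Cdkn1b 110.4 and 96.9 CPM and Cdkn1a, the p53 target, 3.24 and 3.54 CPM. Cdkn1c had no count. In the Myc and Max network Myc had 273 and 310.3 CPM, its partner Max 31.2 and 43.6 CPM and the large Max-binding factor Mga 286 and 326 CPM, while Mycn was silent at 0 and 0.786 CPM.

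Survival genes were expressed unevenly. Of 19 Bcl2 family genes 10 were expressed and 5 silent, with a median of 11.04 CPM. Mcl1, on which plasma cells are known to depend, had 1723 and 1182 CPM, Bcl2l1 (Bcl-xL) 107 and 85.1 CPM and Bcl2 10.1 and 11.99 CPM, at the threshold. Per kilobase these stood at 425, 24.7 and 1.21 CPM. Of the killers, Pmaip1 (Noxa) had 167 and 139.5 CPM, Bid 94.1 and 166 CPM and Bcl2l11 (Bim) 56.3 and 53.1 CPM. The copies Bcl2a1a, Bcl2a1b and Bcl2a1d had no count, but 79.6%, 88.8% and 89.1% of their 31-base stretches occur in another gene, so they are not called absent. Of 24 NF-kappaB genes 16 were expressed and none silent in both libraries, and 1 was silent by replicate 1 alone. Nfkb1 had 117 and 127 CPM, Rela 64.3 and 67.0 CPM and Chuk, a kinase of the pathway, 239 and 195 CPM, whereas Map3k14, the kinase of its second branch, lay in between at 3.84 and 3.93 CPM.

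Of 44 cytokines 5 were expressed (11.4%, beside 34.9% of all genes) and 26 silent (59.1%, beside 46.0%). By replicate 2 alone 8 were expressed, and 10 were at a threshold of 5 CPM. Il16 had 198 and 164 CPM. Il10, the immunosuppressive cytokine, had 87.6 and 40.5 CPM and Il6, a growth factor of plasmacytomas, 42.9 and 51.5 CPM. Its receptor chains were Il6ra, at 11.3 and 9.83 CPM, just under the threshold in replicate 2, and Il6st (gp130), at 179 and 176 CPM. Mif had 22.9 and 22.8 CPM and Ltb 13.7 and 20.2 CPM. Il2, Il4, Ifng, Il17a and Tnf were silent, the last at 0 and 0.786 CPM.

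Partners of Ell2 in transcription elongation were present in these controls. Of 30 genes of the super elongation complex, its partners and related factors, 26 were expressed and 1 silent, with a median of 79.0 CPM. Per kilobase Ell2 stood at 220.3 CPM, its relative Ell at 6.09 and Ell3 at 2.15. The levels of Ell were 14.1 and 23.4 CPM and those of Ell3 5.77 and 3.34 CPM. The associated factor Eaf2 had 199 and 255 CPM and Eaf1 173 and 144 CPM, the scaffold Aff4 301 and 362 CPM and Aff1 132 and 201 CPM. The kinase Cdk9 had 78.9 and 93.1 CPM and its cyclins Ccnt2 151 and 129 CPM and Ccnt1 34.4 and 33.0 CPM.

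Among noncoding genes, 11 of 23 long noncoding and host genes were expressed. Malat1 was followed by Neat1, the RNA of paraspeckles, at 458 and 540.0 CPM, and by Pvt1, the neighbour of Myc, at 107 and 137 CPM. The imprinted RNAs H19, Meg3 and Rian had 0 and 0.393, 1.08 and 2.95 and 0.120 and 0.590 CPM. Xist, the RNA of the inactive X chromosome, had 8.89 and 7.47 CPM and 7 of 8 Y-linked genes were silent. Of 731 genes classed as microRNAs by RefSeq none was expressed and 683 were silent, in libraries counted over gene bodies and not made for small RNAs. Mir715, named as a microRNA but not in that class, had 512 and 669.9 CPM. Mir17hg, the host gene of the cluster named for it, had 21.9 and 19.8 CPM.

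Genes of other cell types were mostly silent. Of 208 genes in 8 lists for other cell types 152 were silent (73.1%, beside 46.0% of all genes). Another 49 lay in between and 7 were expressed (3.37%, beside 34.9%). The median of the 208 was 0.218 CPM. Neuronal and glial genes were nearest the silent share over all genes, with 17 of 30 silent (56.7%), and none of them was expressed. The defining markers were at or near 0: Cd3e at 0 and 1.18 CPM, Lyz2 at 0.120 and 0 CPM, Csf1r at 0.120 and 0.786 CPM, Hbb-b1 at 0, Col1a1 at 0.601 and 1.38 CPM and Alb at 0.120 and 0.590 CPM. Myeloid markers were silent in 22 of 27 cases and summed to 16.3 and 15.9 CPM. T and NK cell markers were silent in 19 of 28 and summed to 68.2 and 58.2 CPM, with Cd6 the highest. The intermediate filament gene Vim, whose product MPC11 is known to lack, lay in between at 2.04 and 4.13 CPM.

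Expressed genes of these lists stood beside silent markers of the same cell types. Cp, ceruloplasmin of the liver, had 998.8 and 1112 CPM, though Alb and Apoa1 were silent; its exons overlap those of Hps3. Epcam, the epithelial adhesion molecule, had 492 and 623 CPM while the keratins Krt8 and Krt18 had 0.721 and 0.393 and 0 and 0.590 CPM. Pecam1, of endothelium, platelets and many leukocytes, had 294 and 272 CPM while Cdh5 had 0.240 and 0.393 CPM. Cd6 had 39.5 and 28.9 CPM, the sperm tail gene Odf2, which also serves centrioles, 59.9 and 38.7 CPM, and Ttn, the giant protein of muscle, 12.5 and 18.5 CPM or 0.136 CPM per kb. Without the 7 expressed genes the rest of the 208 genes summed to 111 and 148 CPM.

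**Figure D5:**
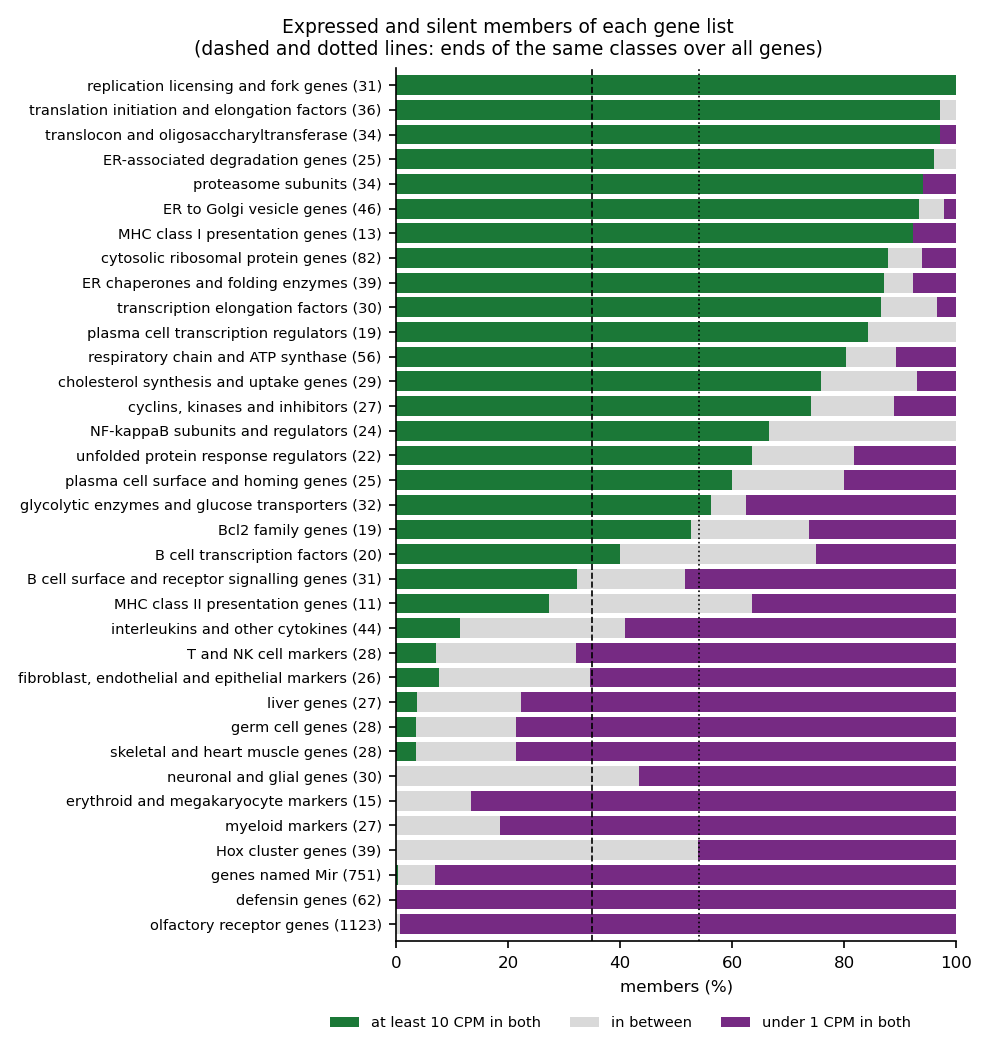
Share of the members of gene lists (vertical axis, number of listed genes in brackets) that had at least 10 CPM in both control libraries (green), under 1 CPM in both (purple) or neither (grey), in percent on the horizontal axis; the dashed line ends the green class over all genes (34.9%) and the dotted line begins the purple class (46.0%). Replication genes are green throughout and most secretory lists nearly so, but the unfolded protein response regulators are green only in 63.6%. B cell lists are mixed, and defensins and olfactory receptors are almost wholly purple.

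Some families were silent almost throughout. Olfactory receptors were silent in 1116 of 1123 genes, vomeronasal receptors in 299 of 301, keratin-associated proteins in 47 of 47 and defensins in 62 of 62. Together these 4 families hold 1533 genes, of which 1524 were silent (99.4%), and they had 0.00525% and 0.0155% of the counts. Keratins were silent in 49 of 51, with Krt222 expressed at 21.5 and 24.6 CPM, and cytochromes P450 in 85 of 102, with Cyp20a1 at 105 and 83.3 CPM. No Hox gene reached the threshold in both libraries, and 18 of 39 were silent (46.2%), near the 46.0% over all genes. By replicate 1 alone 28 were silent. Hoxd8 had 17.9 and 8.25 CPM and Hoxc4 8.77 and 8.65 CPM. Protocadherins were silent in 51 of 71. Repeated copies of a gene at other places, 1039 entries, were silent in 1028 cases (98.9%) and expressed in none, so part of the silent class is made of such entries. Without them 43.5% of 21683 entries were silent and 36.5% expressed.

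Solute carriers were expressed in 114 of 345 genes (33.0%) and silent in 148 (42.9%), near the shares over all genes. The amino acid exchanger formed by Slc7a5 and Slc3a2 had 460.2 and 444 and 374 and 470.4 CPM. Zinc finger genes named Zfp were expressed in 173 of 355 and silent in 46 (13.0%), with a median of 12.2 CPM. By replicate 1 alone 77 were silent, and at a threshold of 20 CPM 111 were expressed. Histone genes were expressed in 50 of 90, the linker histone Hist1h1d at 705 and 955 CPM. Kinesins were expressed in 21 of 38, with the mitotic motors Kif11 at 358 and 296 CPM and Kif20a at 342 and 283 CPM. Rab GTPases were expressed in 29 of 56, led by Rab1 of ER to Golgi traffic at 375 and 293 CPM.

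Genes at the thresholds show how sharp the classes are. Zfp944, with 111 and 51 counts, was just inside the expressed class at 13.3 and 10.0 CPM, and its exact Poisson 95% interval in replicate 2 was 7.46 to 13.2 CPM. The cytokine subunit gene Il23a was just outside, at 9.97 and 11.8 CPM, with 7.94 to 12.4 CPM in replicate 1. Zcchc2 was just inside the silent class at 0.360 and 0.983 CPM and Hpx, the heme carrier hemopexin of the liver, just outside at 1.08 and 0.197 CPM. The intervals cover counting error only, and those of neighbours on either side overlap.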

How the data were processed

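Gene-level read counts of the 2 control libraries were used as the authors deposited them, 1 table per library, and treated as raw counts because they are integers with unequal totals. Per the submitters' processing notes, build mm9 and the tools DESeq 1.4.1, HTSeq 0.5.3 and SAMtools 0.1.11 were used. Aligner, annotation and strandedness: not given in the sources used here, so overlapping and antisense genes could not be told apart. The tables of the Ell2-KD samples were not used.

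Counts were divided by the library total (CPM) in Python 3.11.15. With 1 group and 2 libraries no test was made. Exon lengths and 31-base stretches shared between genes came from GENCODE M21, and promoters and gene classes from RefSeq, both of GRCm38, a later build than that of the counts, so only promoter matches, read from that build's sequence, carry coordinates, and no counted gene does. Names matched RefSeq as written for 19999 genes, by an older symbol for 2419 and not at all for 304. Per-kilobase ranks used genes of at least 300 exon bases. Alternative scalings came from edgeR 4.0.16 and DESeq2 1.42.0 in R 4.3.3. The scripts were tested on simulated data.

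The members and the 55 gene lists were chosen with earlier results of these data known. Genes named by rule were the 6 markers, the 20 highest by CPM and 10 highest per kilobase, up to 4 highest and 3 silent members of each list, expressed members of other cell types' lists, those with the largest ratio between libraries and those beside each threshold. Other members named were chosen after their values were seen. Protein endings that retain ER proteins are not analysed here.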

Additional observations from a re-analysis of the deposited data

How the results depend on the processing

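The number of expressed genes stayed within 1.5 times of 7922 under every alternative run, from 6469 at a threshold of 20 CPM to 8961 at 5 CPM. It was 7920 with TMM sizes, 7912 with DESeq2 size factors and 6940 after dividing by exon length (TPM). The number of silent genes ran from 8476 under 0.5 CPM to 11631 under 2 CPM in both libraries, beside 10454. By replicate 1 alone 8342 genes were expressed and 11895 silent, and by replicate 2 alone 8362 and 10872. Per length 3 genes moved from one of these classes to the other, and none did under TMM, DESeq2 or a total without short RNA genes. That last total and the removal of repeated copies were added after seeing the data. The removal left 9426 silent entries, and the total without short RNAs gave 7955 expressed and 10049 silent genes. Among genes with a count in both libraries 52.7% were expressed, beside 34.9% of all, since fewer genes are counted. The share of the 10 most abundant genes was 15.5% in TPM, beside 5.99% of counts, and that of the first 100 was 37.9%, beside 18.7%; leaving out a library gave 5.71% to 6.27% and 18.6% to 18.8%. The number of expressed members left the range of 1.5 times in 7 of 54 lists at 20 CPM, 6 per length, 5 at 5 CPM, 4 without replicate 1 and 2 without replicate 2. With TMM sizes and with DESeq2 size factors it left that range in 1 list each. The number of silent members did so in 11 lists under 0.5 CPM, 8 each under 2 CPM, per length and without replicate 2, and 1 without replicate 1. Without entries of repeated copies 2 lists moved in this way. No paired analysis was possible because only 1 group was described. The shallower library sets the limit for silent genes, where 1 CPM is 5.09 counts.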

Other observations

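Some abundant messages belong to sets that were picked after their values were seen, so they are given as values only. The 8 subunits of the cytosolic chaperonin that folds actin and tubulin were all expressed, with a median of 902 CPM and a summed level of 7050 CPM in replicate 1 and 7160 CPM in replicate 2. Its subunit Cct2 had 1224 and 1388 CPM and Tcp1 had 1118 and 1132 CPM. Of 23 importins and exportins, carriers between nucleus and cytosol, 22 were expressed, with a median of 209 CPM. Cathepsins, proteases of the lysosome, were split: 8 of 18 were expressed and 10 were silent. Ctsz had 1050.5 and 1101 CPM and Ctse, an aspartic protease, had 479 and 456 CPM.

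Single genes outside every list also ranked high and were likewise picked by their values. Fam46c, a gene mutated in human myeloma, had 1111 and 759.5 CPM. The antiproliferative gene Btg2 had 1078 and 979 CPM, and the kinase gene Pim1 had 353 and 404 CPM. St6gal1, which adds sialic acid to glycoproteins, had 1028 and 933 CPM. The B lineage factor Arid3a had 974.9 and 644 CPM. Of the 7922 expressed genes, 6786 are members of no list used here.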
